A study of Mus musculus with 2 samples.

Results

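The genes of cell death were described in mRNA from small intestinal epithelial cells of miR-215-/- and of wild-type (miR-215+/+) mice. They were chosen by symbol: the tumour necrosis factor (TNF) ligands and receptors with a Tnfsf or Tnfrsf number, the caspases with a number, and a fixed set of adaptors, kinases, inhibitors of apoptosis and Bcl2 family genes. Of the 23284 genes listed, 63 are described. There was 1 library of each genotype, the miR-215-/- library and the wild-type library, so nothing here could be checked against replicates and no p-value is given. "Higher" and "lower" describe the miR-215-/- library relative to the wild-type library. The sources used here do not give the strain, sex or age of the mice, the number of animals behind a library or the deleted stretch of the locus.

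In the death receptor pathway, a TNF family ligand binds a receptor on the cell surface, adaptors join the receptor's tail, and Casp8 is activated. In the mitochondrial pathway, BH3-only proteins release the pore-forming proteins Bax and Bak1 from antiapoptotic relatives, cytochrome c leaves the mitochondria, and Apaf1 and Casp9 activate the executioner caspases. When Casp8 is blocked, Ripk3 and Mlkl can kill the cell by necroptosis, while Casp1 and Casp4 act in inflammatory lysis through gasdermin D. The intestinal epithelium is renewed throughout life and sheds its oldest cells at the villus tips, and these pathways are known there for removing damaged or infected cells.

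The microRNA that the mutant mice lack and the related miR-192 share their seed, the bases 2 to 8 by which a microRNA pairs with its targets. Both mature sequences are shown because this seed was searched in the 3' untranslated regions of the members. They come from RefSeq on GRCm38.p6, the assembly of mm10, and the capitals mark the seed.
miR-215-5p: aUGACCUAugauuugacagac
miR-192-5p: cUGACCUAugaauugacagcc
The DNA letters opposite this seed are TAGGTCA. Measured members were those that reached 1 FPKM (fragments per kilobase of transcript, scaled to library depth) in either library. Of these 44 members, 1 held this heptamer in its longest annotated 3' untranslated region. That is 2.27%, with an exact 95% Clopper-Pearson interval of 0.0575 to 12.02%, against 6.84% of 10987 genes of the same minimum level. The gene was Pmaip1, which encodes the BH3-only protein Noxa, with the match at base 451 of a region of 2192 bases. The median length of the region was 1287.5 bases in the members and 1095 in all genes.

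The hexamer AGGTCA, opposite bases 2 to 7, was held by 14 of the 44 members, 31.8%, against 29.8% of all genes. The first match is shown for the inhibitor of apoptosis and Bcl2 family genes that held it outside Pmaip1, because each lacks the T before it that would complete the heptamer. The capitals mark the hexamer, and each stretch reads along the transcript.
Xiap: aatggtcactcggaAGGTCAcagaat
Bcl2l1: cagcagggctgccaAGGTCAgaatgg
Bak1: cctgctactttggaAGGTCAgccctt
Bcl2l11: ctcggggactggccAGGTCAtttcag
Bid: cctaaaacagcagcAGGTCActcggt
Bmf: ggaactaagcagtgAGGTCActgtga
In mm10 they lie at chrX:42107350-42107375 on the plus strand (Xiap), chr2:152781078-152781103 on the minus strand (Bcl2l1), chr17:27020504-27020529 on the minus strand (Bak1), chr2:128159391-128159416 on the plus strand (Bcl2l11), chr6:120893570-120893595 on the minus strand (Bid) and chr2:118529408-118529433 on the minus strand (Bmf). A match describes the letters of a transcript and is not a measured binding site.

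The libraries were alike in depth. For a transcript of 2000 nt, 1 FPKM stood for about 18.1 fragments in the miR-215-/- library and 17.4 in the wild-type library. Mir215 itself was listed at 0 in the miR-215-/- library and at 137 FPKM in the wild-type library, over a gene of 112 nt that is shorter than a sequenced fragment, so this level could not be turned into a fragment number. All 8 epithelial markers were high, with a summed level of 17007 FPKM in the miR-215-/- library and 17806 FPKM in the wild-type library. Markers of other cells were present too, and their sums in the miR-215-/- and the wild-type library were 693.8 and 611.2 FPKM over the 11 listed of 12 T cell and intraepithelial lymphocyte markers, 92.7 and 72.0 FPKM over 9 macrophage and dendritic cell markers, 91.0 and 59.8 FPKM over 5 B and plasma cell markers, 53.9 and 15.3 FPKM over 10 fibroblast and smooth muscle markers, and 5.98 and 1.38 FPKM over 5 endothelial markers. Single markers did not all follow these sums. Of the T cell and intraepithelial lymphocyte markers, 6 were higher and 5 lower. Of the B and plasma cell markers, 2 were higher and 3 lower, and of the macrophage and dendritic cell markers, 8 were higher and 1 lower. None of the markers of other cells was at 0 in both libraries. Their part in the results was not tested, and in such bulk samples fewer cells of a type and less RNA per cell cannot be told apart.

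The members as a group lay close to the other genes. On the scale of log2(FPKM + 1), 1 of the 44 measured members was at least 2-fold higher, against 1.34% of 11504 genes, and 1 was at least 2-fold lower, against 2.04%. At 1.5-fold the members were 3 higher (6.82%, against 4.83% of all genes) and 5 lower (11.4%, against 7.26%). The median log2 ratio of the members was -0.07 and that of all genes -0.05, while 16 members lay above 0 (36.4%, against 44% of all genes) and 28 below 0 (63.6%, against 56%). With the miR-215-/- values multiplied by 1 factor to equal summed FPKM, the median of all genes moved by 0.12 and the members, then 45, split into 24 above and 21 below 0, so small differences have no fixed sign. For 9 members, among them Tnfrsf1a, Tradd, Cflar, Xiap, Bcl2 and Bak1, the sign of the log2 ratio depended on the setting.

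**Figure D1:**
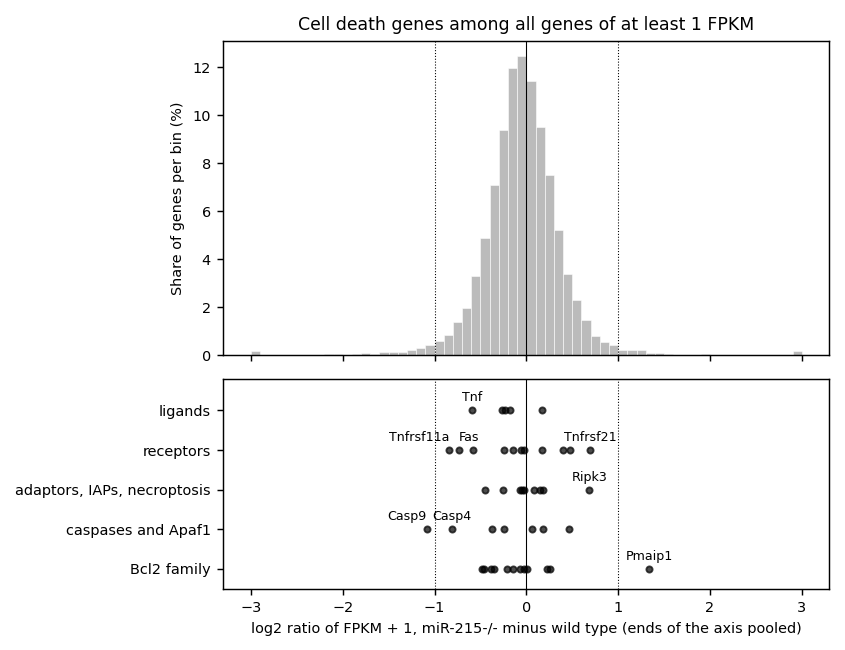
The upper panel shows the share of 11504 genes per bin of 0.1 on the log2 ratio of FPKM + 1 (miR-215-/- minus wild type), and the lower panel shows 1 dot for each of 44 cell death genes by role, with dotted lines at 2-fold. Pmaip1 at 1.34 and Casp9 at -1.08 are the members beyond the dotted lines.

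The levels of the members spanned a wide range in both libraries, as the plot of levels by gene shows. Bak1 was highest in the miR-215-/- library, at 143 FPKM, and Casp1 was highest in the wild-type library, at 170 FPKM. Mcl1, Casp6 and Tnfrsf1a were next, and Tnfrsf1a, the lowest of these, was at 113 FPKM in the miR-215-/- library and 126 FPKM in the wild-type library. At the low end of the measured members were Tnfrsf9, Tnf, Fasl, Bcl2 and Tnfrsf18, none above 2.5 FPKM. The other 19 members were under 1 FPKM in both libraries, 8 of them ligands, 8 receptors, 2 caspases and 1 a BH3-only gene.

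**Figure D2:**
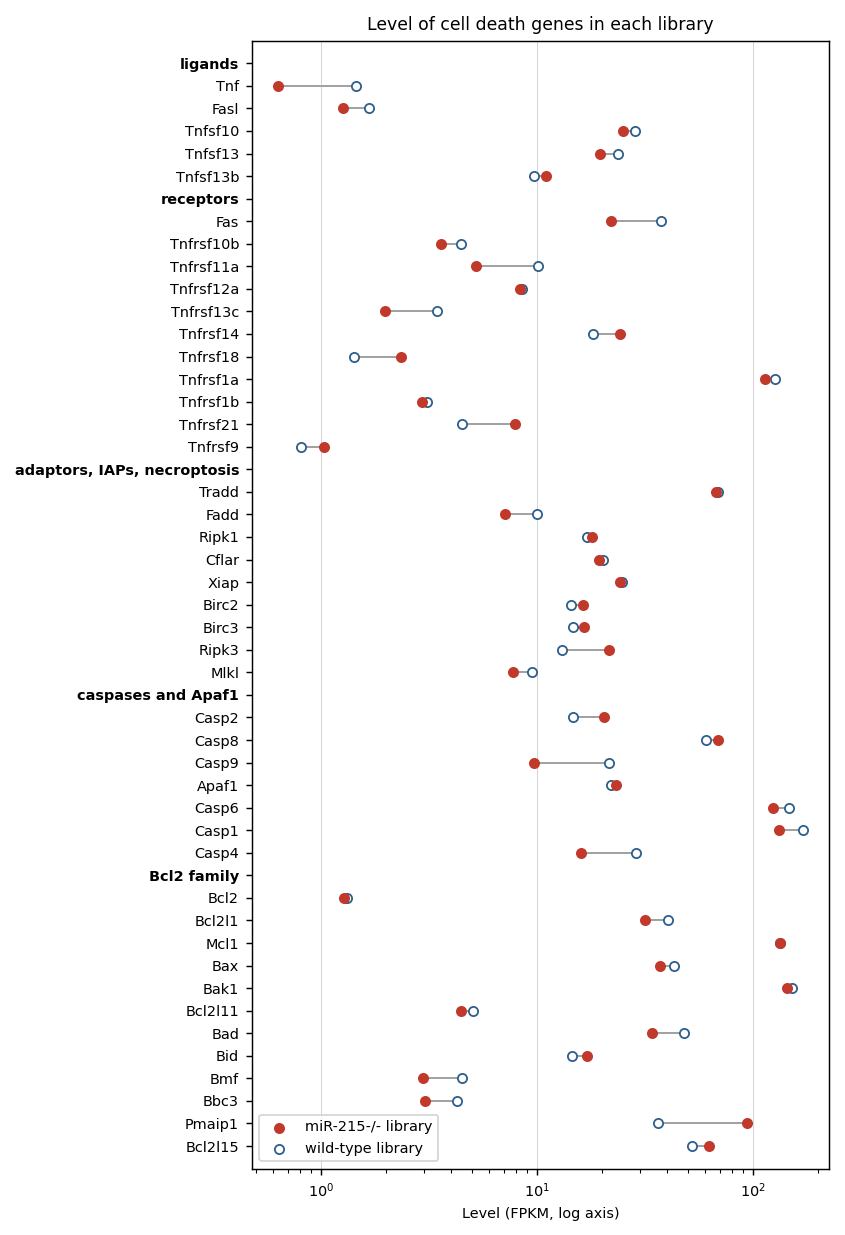
Level in FPKM (log axis) of the 44 measured members, ordered by role; filled circles are the miR-215-/- library, open circles the wild-type library, and a grey line joins the values of a gene. The widest gaps belong to Pmaip1 (93.5 and 36.4 FPKM), Casp9 (9.62 and 21.5 FPKM) and the low gene Tnf (0.631 and 1.45 FPKM), as levels in the miR-215-/- and wild-type libraries.

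Ligands are given first. Tnf, the inflammatory cytokine that names the family, was at 0.631 FPKM in the miR-215-/- library and 1.45 FPKM in the wild-type library. This rested on about 9 and 19 fragments, and the 2.31-fold lower value had a 95% counting interval of 0.949 to 5.53, which includes no difference. Fasl, the ligand of Fas carried by cytotoxic lymphocytes, was at 1.26 FPKM in the miR-215-/- library and 1.66 FPKM in the wild-type library, 1.32-fold lower with an interval of 0.731 to 2.43. The counting intervals come from estimated fragment numbers and say nothing of how much animals or preparations vary. They also take the deposited FPKM without rescaling.

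Tnfsf10 encodes the death ligand TRAIL and was the most abundant ligand. Its level was 24.9 FPKM in the miR-215-/- library and 28.4 FPKM in the wild-type library, 1.14-fold lower (1.05 to 1.23). Over the settings tried its log2 ratio ran from -0.20 to -0.002. Tnfsf13 encodes APRIL, a factor that supports IgA-producing B cells, and was at 19.6 and 23.7 FPKM in the miR-215-/- and wild-type libraries, 1.21-fold lower (1.01 to 1.45). Its exons share 60.0% of their length with the read-through gene Tnfsfm13 on the same strand, so its level is uncertain, and the low gene Tnfsf12 shares 48.3% of its exon length with Tnfsfm13. Tnfsf13b, which encodes the B cell survival factor BAFF, was at 10.9 FPKM in the miR-215-/- library and 9.64 FPKM in the wild-type library, and its fold of 1.14 had an interval of 0.996 to 1.29. Of the 5 measured ligands 4 thus lay below 0, against 56% of all genes, with differences small beside 2-fold or resting on few fragments.

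The 8 ligands under 1 FPKM rested on 0 to 21 fragments. Tnfsf18 was listed at 0 in both libraries, Tnfsf11 (RANKL) at 0 in the miR-215-/- library and 0.152 FPKM in the wild-type library, and Tnfsf4 at 0.0705 FPKM in the miR-215-/- library and 0 in the wild-type library. Tnfsf8, the ligand of CD30, was at 0.147 FPKM in the miR-215-/- library and 0.457 FPKM in the wild-type library, about 5 and 16 fragments, and it was the only one of the 8 whose interval left out equality (3.11-fold lower, 1.16 to 11.6). Tnfsf15 (0.369 and 0.693 FPKM), Tnfsf14 (0.120 and 0.249 FPKM), Tnfsf12 (0.864 and 0.616 FPKM) and Tnfsf9 (0.387 and 0.401 FPKM), levels in the miR-215-/- and wild-type libraries, had intervals that included 1.

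Among the receptors, those with a death domain come first. Tnfrsf1a, the main TNF receptor of epithelial cells and the most abundant receptor, was at 113 FPKM in the miR-215-/- library and 126 FPKM in the wild-type library, 1.11-fold lower (1.05 to 1.18). Its sign turned under rescaling, with log2 ratios between -0.15 and 0.03. Fas (chromosome 19, 34290666 to 34327772 in mm10) was at 22.0 FPKM in the miR-215-/- library and 37.3 FPKM in the wild-type library. The 1.7-fold lower level had an interval of 1.4 to 2.06 and rested on about 177 and 286 fragments, so Fas was lower while its ligand was not resolved.

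Tnfrsf21, which encodes death receptor 6 (chromosome 17, 43016555 to 43089189), went the other way. It was at 7.86 FPKM in the miR-215-/- library and 4.47 FPKM in the wild-type library, 1.76-fold higher (1.43 to 2.15). Tnfrsf10b, the mouse TRAIL receptor with a death domain, was at 3.59 FPKM in the miR-215-/- library and 4.45 FPKM in the wild-type library. Its 1.24-fold lower level had an interval of 0.953 to 1.62. Tnfrsf25 (death receptor 3) was at 0.425 and 0.147 FPKM, about 6 and 2 fragments in the miR-215-/- and wild-type libraries.

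Of the receptors without a death domain, Tnfrsf11a differed most. It encodes RANK, the receptor of RANKL, which in the gut drives the formation of M cells, the epithelial cells that take up antigen over lymphoid follicles. Tnfrsf11a (chromosome 1, 105780718 to 105847981) was at 5.19 FPKM in the miR-215-/- library and 10.1 FPKM in the wild-type library, 1.94-fold lower (1.66 to 2.27). Its ligand gene Tnfsf11 was at or near 0 in both, and the decoy receptor Tnfrsf11b was at 0.189 and 0.275 FPKM in the miR-215-/- and wild-type libraries.

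Tnfrsf14, the receptor HVEM on epithelial and lymphoid cells, was at 24.2 FPKM in the miR-215-/- library and 18.1 FPKM in the wild-type library, 1.34-fold higher (1.07 to 1.67). Tnfrsf13c, the BAFF receptor of B cells, was at 1.98 FPKM in the miR-215-/- library and 3.44 FPKM in the wild-type library, 1.74-fold lower (1.12 to 2.75). The B cell markers Cd79b (7.88 and 12.2 FPKM), Ms4a1 (4.54 and 6.05 FPKM) and Cd79a (14.4 and 16.4 FPKM) were also lower in the miR-215-/- library than in the wild-type library, whereas the plasma cell genes Jchain, listed as Igj (58.6 and 20.3 FPKM), and Mzb1 (5.52 and 4.85 FPKM) were higher; their part in the Tnfrsf13c value was not tested.

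Tnfrsf18 (GITR, 2.35 and 1.41 FPKM in the miR-215-/- and wild-type libraries) and Tnfrsf9 (4-1BB, 1.03 and 0.807 FPKM in the same libraries), both known from T cells, had intervals that included 1, and 27.2% of the exon length of Tnfrsf18 lies opposite Gm16008. Tnfrsf12a, the receptor of TWEAK, was at 8.35 FPKM in the miR-215-/- library and 8.54 FPKM in the wild-type library, and Tnfrsf1b, the TNF receptor found mainly on leukocytes, at 2.92 and 3.07 FPKM in the miR-215-/- and wild-type libraries. The low receptors Tnfrsf13b, Tnfrsf22, Tnfrsf23, Tnfrsf26, Tnfrsf4 and Tnfrsf8, with levels from 0 to 0.964 FPKM, rested on 0 to 12 fragments. None of them had an interval that left out 1, and Tnfrsf22, Tnfrsf23 and Tnfrsf26 are neighbouring paralogs whose fragments may have been shared.

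The parts that join the receptors to Casp8 were nearly level. Tradd, the TNF receptor adaptor, was at 66.9 FPKM in the miR-215-/- library and 69.0 FPKM in the wild-type library (interval of the lower level 0.944 to 1.13). Cflar, which encodes the Casp8 inhibitor cFLIP, was at 19.3 and 20.2 FPKM, and the kinase gene Ripk1 at 18 and 16.9 FPKM in the miR-215-/- and wild-type libraries. Fadd, the adaptor that recruits Casp8, stood out as lower, at 7.09 FPKM in the miR-215-/- library and 10.01 FPKM in the wild-type library, 1.41-fold (1.2 to 1.67).

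Inhibitors of apoptosis differed little. Xiap, which blocks caspases directly, was at 24.1 FPKM in the miR-215-/- library and 24.6 FPKM in the wild-type library, with an interval of 0.915 to 1.06 around a fold of 0.983. The ubiquitin ligase genes Birc2 (16.3 and 14.3 FPKM in the miR-215-/- and wild-type libraries, fold 1.14, 1.0002 to 1.3) and Birc3 (16.4 and 14.7 FPKM, fold 1.12, 0.967 to 1.29) had slightly higher values in the miR-215-/- library, and the interval of Birc3 included 1. They are neighbouring paralogs on chromosome 9.

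Of the necroptosis genes, Ripk3 was higher and Mlkl was not resolved. Ripk3, the kinase that triggers necroptosis (chromosome 14, 55784995 to 55788865), was at 21.6 FPKM in the miR-215-/- library and 13 FPKM in the wild-type library, 1.66-fold higher (1.39 to 1.97). Mlkl, its substrate that breaks the membrane, was at 7.74 FPKM in the miR-215-/- library and 9.41 FPKM in the wild-type library, 1.22-fold lower with an interval of 0.961 to 1.53. The ratio of the Ripk3 level to the Mlkl level was thus 2.79 in the miR-215-/- library and 1.39 in the wild-type library.

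Among the caspases, the initiators went apart. Casp9, the initiator of the mitochondrial pathway (chromosome 4, 141793612 to 141815976), was at 9.62 FPKM in the miR-215-/- library and 21.5 FPKM in the wild-type library. Its 2.24-fold lower level had an interval of 1.91 to 2.61, rested on about 242 and 520 fragments, and gave a log2 ratio of -1.08, the only one of a member past 2-fold on the lower side. After rescaling to equal sums that log2 ratio was -0.96, just short of 2-fold, so its direction held and its side of the 2-fold line did not. Apaf1, the scaffold on which Casp9 is activated, was at 23.1 FPKM in the miR-215-/- library and 22.0 FPKM in the wild-type library (fold 1.05, 0.972 to 1.13), which put the ratio of the Apaf1 level to the Casp9 level at 2.40 in the miR-215-/- library and 1.02 in the wild-type library.

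Casp8, the initiator of the death receptor pathway and the most abundant initiator, was at 68.7 FPKM in the miR-215-/- library and 60.6 FPKM in the wild-type library, 1.13-fold higher (1.04 to 1.23). Casp2, an initiator linked to DNA damage and the PIDDosome, was at 20.4 FPKM in the miR-215-/- library and 14.6 FPKM in the wild-type library, 1.4-fold higher (1.24 to 1.58). The summed level of Casp2, Casp8 and Casp9 was 98.7 FPKM in the miR-215-/- library and 96.7 FPKM in the wild-type library.

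Casp6, a caspase that cuts proteins of the dying cell, was at 123 FPKM in the miR-215-/- library and 146 FPKM in the wild-type library, 1.19-fold lower (1.11 to 1.27). It was lower under all settings tried, with log2 ratios between -0.25 and -0.06. Its ratio of 0.843 became 0.926 after rescaling to equal sums.

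The measured inflammatory caspases were lower too, under all settings tried. Casp4 (chromosome 9, 5308828 to 5336783), which senses intracellular lipopolysaccharide, was at 15.9 FPKM in the miR-215-/- library and 28.7 FPKM in the wild-type library, 1.8-fold lower (1.51 to 2.16). Casp1, which matures IL-1β and IL-18, was at 131 FPKM in the miR-215-/- library and 170 FPKM in the wild-type library, 1.3-fold lower (1.22 to 1.39). Casp12, beside them on chromosome 9, was at 0.618 and 0.642 FPKM in the miR-215-/- and wild-type libraries, about 15 fragments in each, and Casp14, a caspase of the skin, rested on about 2 and 1 fragments in the miR-215-/- and wild-type libraries. Of the 6 caspases measured here, 4 lay below 0, against 56% of all genes. The median log2 ratio of the 6 was -0.31 beside -0.05 for all genes.

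**Figure D3:**
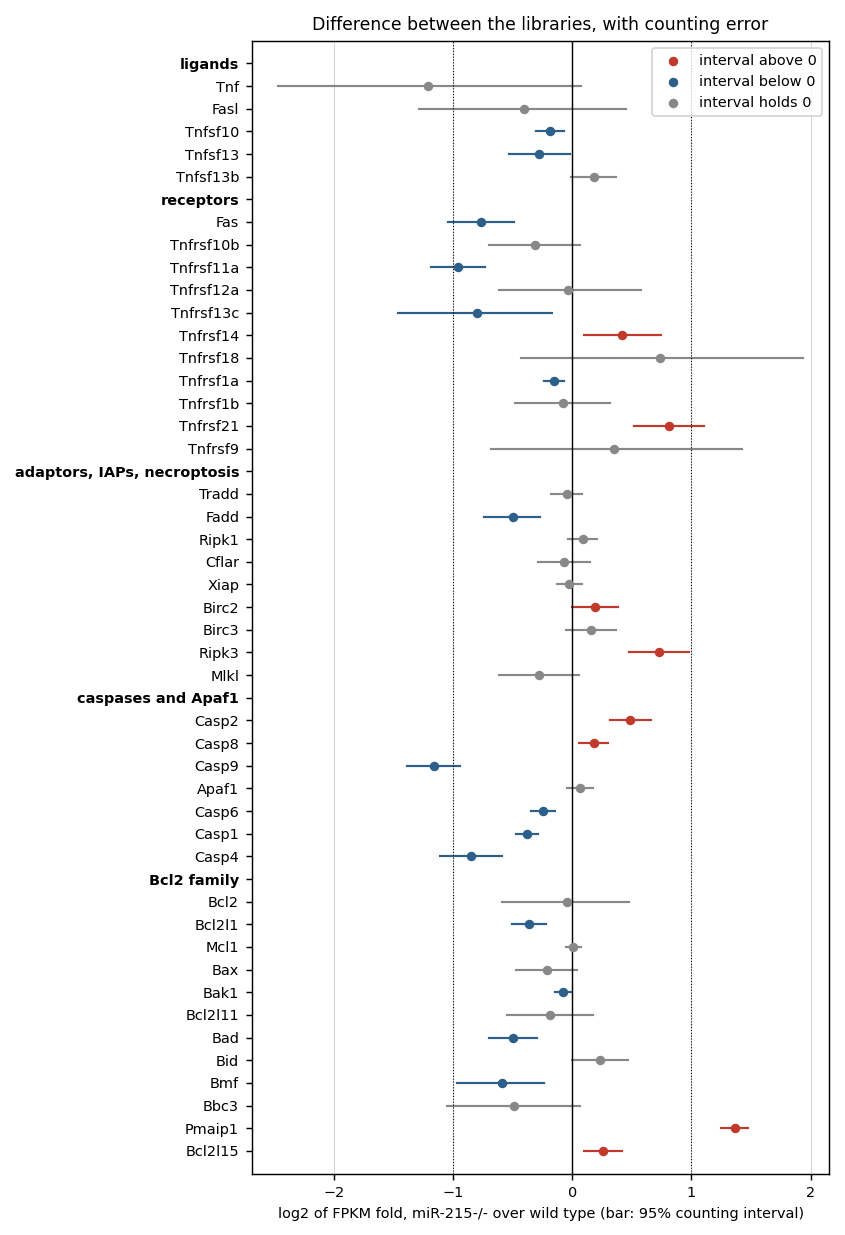
Log2 of the FPKM fold (miR-215-/- over wild type, no value added) of 44 members by role; points are the fold and bars its 95% counting interval from estimated fragments, red where the bar lies above 0, blue below 0 and grey where it holds 0, with dotted lines at 2-fold. The bars of 8 members lie above 0 and those of 15 below 0, and Casp9, Casp6 and both measured inflammatory caspases are among the 15.

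Counting error alone left out equality in 8 of the 44 members on the higher side, which is 18.2% against 19.6% of 11388 genes with a transcript length, and in 15 on the lower side, 34.1% against 30.3%. The higher members were Tnfrsf14, Tnfrsf21, Birc2, Ripk3, Casp2, Casp8, Pmaip1 and Bcl2l15. Both shares lay near those of all genes.

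In the Bcl2 family the antiapoptotic members come first. Mcl1, the most abundant of them and a binding partner of Noxa, was at 133 FPKM in both libraries. As deposited it was level, with an interval of 0.964 to 1.05 around a fold of 1.01. After rescaling to equal sums its log2 ratio was 0.14, and over the settings tried it ran from 0.008 to 0.19. Bcl2l1, which encodes Bcl-xL, was at 31.4 FPKM in the miR-215-/- library and 40.3 FPKM in the wild-type library, 1.28-fold lower (1.16 to 1.42). Bcl2 itself was low in this epithelium, at 1.28 FPKM in the miR-215-/- library and 1.32 FPKM in the wild-type library.

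The pore-forming members were close in both libraries. Bak1 was at 143 FPKM in the miR-215-/- library and 151 FPKM in the wild-type library (1.05-fold lower, 1.003 to 1.11), and its sign turned under rescaling. Bax was at 36.9 FPKM in the miR-215-/- library and 42.8 FPKM in the wild-type library (1.16-fold lower, 0.971 to 1.38). Of the exon length of Bak1, 25.5% lies opposite Ggnbp1, and the sources used here do not say whether counting used the strand. Bcl2l15, a Bcl2 relative abundant in the gut, was at 62.5 FPKM in the miR-215-/- library and 52.2 FPKM in the wild-type library, 1.2-fold higher (1.07 to 1.34). Bcl2l15 shares 21.0% of its exon length with Gm43064 on the same strand, and Bax shares 12.2% with Gm45808, so their levels are uncertain to that extent.

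The BH3-only genes held the largest difference of the members. Pmaip1, on chromosome 18, was at 93.5 FPKM in the miR-215-/- library and 36.4 FPKM in the wild-type library, 2.57-fold higher with an interval of 2.38 to 2.78 from about 2376 and 889 fragments. Its log2 ratio of 1.34 stayed between 1.25 and 1.52 over the settings tried. Pmaip1 is also the member with the seed heptamer described above, and a link between this match and its level was not tested. The ratio of the Pmaip1 level to the level of Mcl1, which Noxa binds, was 0.701 in the miR-215-/- library and 0.274 in the wild-type library.

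Apart from Pmaip1, Bad and Bmf were lower, and the remaining BH3-only genes had intervals that included 1. Bad, which binds Bcl-xL, was at 34.1 FPKM in the miR-215-/- library and 48.0 FPKM in the wild-type library, 1.41-fold lower (1.22 to 1.62), with 20.5% of its exon length opposite Gpr137. Bmf was at 2.97 FPKM in the miR-215-/- library and 4.47 FPKM in the wild-type library, 1.51-fold lower (1.18 to 1.95). Bid, which Casp8 cleaves to link both pathways, was at 17.1 FPKM in the miR-215-/- library and 14.5 FPKM in the wild-type library, and its fold of 1.18 had an interval of 0.9997 to 1.38, with 17.7% of its exon length opposite Bcl2l13.

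Bbc3, which encodes the p53 target Puma, was at 3.02 FPKM in the miR-215-/- library and 4.24 FPKM in the wild-type library (interval of the lower level 0.955 to 2.07). Bcl2l11, which encodes Bim, was at 4.45 and 5.05 FPKM in the miR-215-/- and wild-type libraries, and Bik rested on about 4 and 1 fragments in these libraries. The summed level of the 7 BH3-only genes was 156 FPKM in the miR-215-/- library and 113 FPKM in the wild-type library, and without Pmaip1 it was 62.1 FPKM in the miR-215-/- library and 76.4 FPKM in the wild-type library. Pmaip1 made up 60.1% of that sum in the miR-215-/- library and 32.2% in the wild-type library, while Bad made up 21.9% in the miR-215-/- library and 42.6% in the wild-type library.

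**Figure D4:**
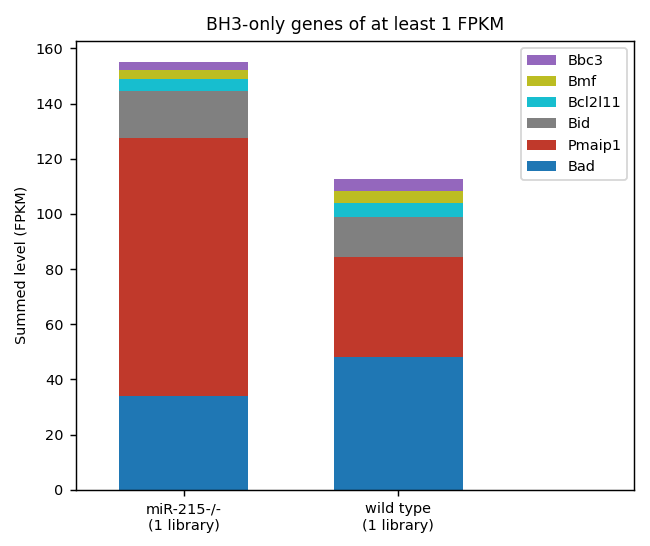
Stacked levels in FPKM of the 6 measured BH3-only genes, with the miR-215-/- library on the left and the wild-type library on the right. The Pmaip1 segment is 93.5 FPKM in the miR-215-/- library and 36.4 FPKM in the wild-type library, and the Bad segment 34.1 FPKM in the miR-215-/- library and 48.0 FPKM in the wild-type library.

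The genes that work with these families were read from 9 further lists. For comparison, 44% of all genes lay above 0 and 56% below 0. TNF superfamily genes under other symbols had 3 of 12 genes measured, all below 0, with a median log2 ratio of -0.22. The lymphotoxin β receptor gene Ltbr was at 79.5 FPKM in the miR-215-/- library and 92.6 FPKM in the wild-type library, 1.16-fold lower (1.09 to 1.25). Its ligand gene Ltb was at 4.46 and 6.59 FPKM and Cd27 at 1.44 and 1.80 FPKM in the miR-215-/- and wild-type libraries. The intervals of these lower levels included 1, at 0.971 to 2.21 for Ltb and 0.485 to 3.51 for Cd27. Cd27 rested on about 9 and 11 fragments. TRAF adaptors, which carry receptor signals to kinases, had a median of -0.04 over 8 genes, with 4 above and 4 below 0. They included Traf1 at 1.96 and 1.21 FPKM, Traf5 at 1.22 and 1.84 FPKM, Traf3 at 4.70 and 5.74 FPKM, and Tank, the most abundant, at 22.8 and 22.1 FPKM in the miR-215-/- and wild-type libraries.

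Genes of the NF-κB pathway, which TNF receptors switch on, had a median of -0.03 over 22 genes. These were the subunits, their inhibitors and upstream genes such as Ikbkb, Map3k7, Tab1 and Rnf31. Of the 22 genes, 10 lay above and 12 below 0, and none was past 1.5-fold. Relb, a subunit of the alternative pathway, was at 48.0 FPKM in the miR-215-/- library and 69.0 FPKM in the wild-type library, 1.44-fold lower (1.32 to 1.57). The inhibitor gene Nfkbia was at 87.0 and 80.0 FPKM, Nfkb1 at 24.8 and 20.5 FPKM and Tab1 at 8.74 and 11.4 FPKM in the miR-215-/- and wild-type libraries.

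Other Bcl2 relatives had a median of -0.08 over 10 measured of 14 genes, with 3 above and 7 below 0. Bok, a pore-forming relative of Bax, was past 2-fold lower, at 14.3 FPKM in the miR-215-/- library and 37.5 FPKM in the wild-type library, 2.63-fold (2.2 to 3.13). The mitophagy genes Bnip3 (7.59 and 12.6 FPKM in the miR-215-/- and wild-type libraries) and Bnip3l (24.0 and 35.7 FPKM in the same libraries) were lower by 1.66-fold (1.31 to 2.1) and 1.49-fold (1.35 to 1.64). Bcl2a1b, at 2.31 FPKM in the miR-215-/- library and 0.923 FPKM in the wild-type library, is 1 of several near-identical copies.

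A list of mitochondrial death factors and inhibitor antagonists had a median of -0.12 over 14 genes, with 5 above and 9 below 0. None was past 1.5-fold. The list also held genes of the inhibitor family itself, namely Birc5, Birc6, Naip1, Naip2, Naip5 and Naip6. Cycs, which encodes cytochrome c, was at 131 FPKM in the miR-215-/- library and 169 FPKM in the wild-type library, 1.28-fold lower (1.23 to 1.34). Endog was at 11.2 and 14.6 FPKM, the channel gene Vdac2 at 453.8 and 388.7 FPKM, and Naip1, whose copies are near-identical, at 20.7 and 28.2 FPKM in the miR-215-/- and wild-type libraries. Caspase substrates and DNA fragmentation genes, grouped with Pidd1, Cradd and Casp8ap2, had a median of 0.16 over 10 genes, with 7 above 0. The lamin gene Lmna was at 64.8 and 45.5 FPKM, Parp1 at 8.73 and 6.49 FPKM, and Pidd1, the PIDDosome scaffold listed as Lrdd, at 3.01 and 1.83 FPKM in the miR-215-/- and wild-type libraries.

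Gasdermins and pyroptosis genes had a median of -0.10 over 9 measured of 11 genes, with 4 above and 5 below 0. Gsdmd, the pore protein that Casp1 and Casp4 cleave, was at 314 FPKM in the miR-215-/- library and 337 FPKM in the wild-type library. The gasdermin C genes Gsdmc4 (17.0 and 9.40 FPKM, 1.81-fold, 1.5 to 2.19), Gsdmc3 (7.15 and 4.24 FPKM, 1.69-fold, 1.27 to 2.26) and Gsdmc2 (16.5 and 10.9 FPKM, 1.52-fold, 1.27 to 1.82), with levels in the miR-215-/- and wild-type libraries, were each higher, and they are close copies whose fragments may have been shared.

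Cytotoxic granule genes had a median of 0.20 over 7 measured of 11 genes, with 5 above 0. Gzma, the most abundant, was at 261 FPKM in the miR-215-/- library and 250.5 FPKM in the wild-type library, Gzmb at 67.9 and 54.9 FPKM, Nkg7 at 22.7 and 19.3 FPKM and Serpinb6b at 3.17 and 1.49 FPKM in the miR-215-/- and wild-type libraries. p53 and its targets had a median of 0.15 over 13 measured of 14 genes, with 8 above and 5 below 0. Known p53 targets are also found among the members, such as Pmaip1 (log2 ratio 1.34) and Bbc3 (-0.38, with an interval that included 1). The members were not sorted by this trait, so these genes do not stand for all such members. The p53 targets Perp, a junction protein gene (109 and 175 FPKM, 1.6-fold lower, 1.51 to 1.69), Cdkn1a (188 and 169 FPKM), Trp53inp1 (10.4 and 7.45 FPKM) and Polk (2.46 and 1.48 FPKM), with levels in the miR-215-/- and wild-type libraries, did not go 1 way. Across the 9 lists, Bok alone was past 2-fold on the log2(FPKM + 1) scale, on the lower side. Among all 11504 genes, 2.04% passed this line on the lower side and 1.34% on the higher side.

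**Figure D5:**
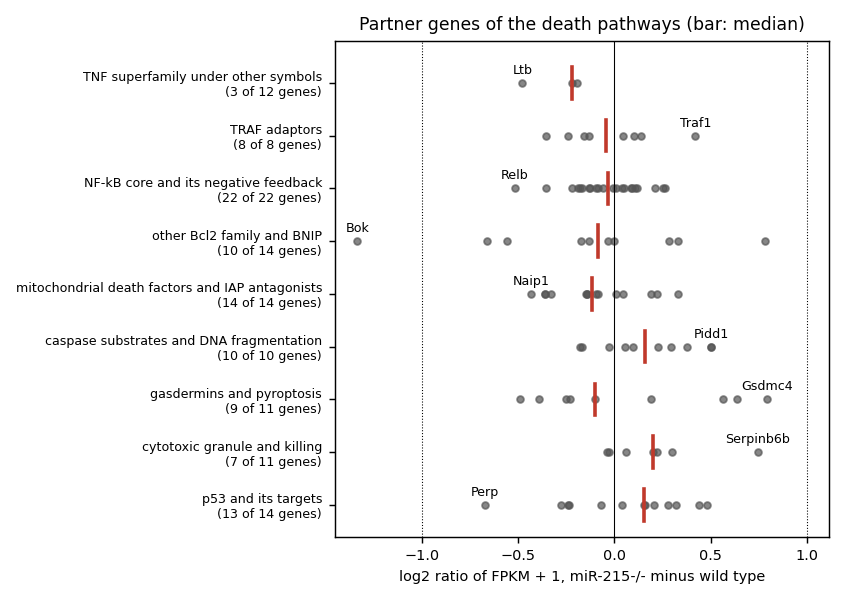
Log2 ratio of FPKM + 1 (miR-215-/- minus wild type) of the partner genes in 9 lists, with 1 dot for each measured gene, a red bar at the median of each list and dotted lines at 2-fold. The medians lie between -0.22 and 0.20, and Bok at -1.33 is the dot beyond a dotted line.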

How the data were processed

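Both libraries were made from polyadenylated RNA with a TruSeq stranded mRNA kit, per the labels' protocols. The deposited values are FPKM, made by the authors; Cuffnorm 2.2.1, TopHat2 2.0.13, SAMtools 0.1.19 and Bowtie2 2.2.3, with the build mm10, are in the submitters' processing notes, and the unit was inferred from the tool and the values. The sources used here give no annotation, use of strand or scaling.

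Genes that reached 1 FPKM in either library were kept (11504) and log2(FPKM + 1) was compared. Fragment numbers were estimated from the steps between values under 0.3 FPKM in single-transcript coding genes (451 in the miR-215-/- library, 436 in the wild-type library): 1 fragment over 1 kb was worth 0.0990 and 0.1025 FPKM, with 210 and 220 nt taken off each transcript, for which the median length of the RefSeq-linked transcripts was used. Clopper-Pearson 95% intervals of folds follow from these numbers. Lengths, coordinates and 3' untranslated regions came from GENCODE M21 on GRCm38, and 22826 of 23284 symbols matched. The functions were tested on simulated data (Python 3.11.15, SciPy 1.17.1).

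Each kept member is named with both values; folds are given where past 1.5-fold, where the interval left out 1, and for the most abundant of each role; of the partner lists the 3 largest log2 ratios and the most abundant gene are named. The members and lists were chosen with earlier results of these data known. A few genes are not reported here.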

Additional observations from a re-analysis of the deposited data

How the results depend on the processing

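Pseudocount, minimum level, scaling and a correction for transcript length were varied. Pmaip1 was the only member at least 2-fold higher under each of these, and the 1.5-fold rule gave 3. The share of all genes at least 2-fold higher ran from 0.522% (pseudocount of 5) to 2.95% (pseudocount of 0.1). It was 4.83% at 1.5-fold. The count of members at least 2-fold lower was 1 as reported, 2 with a pseudocount of 0.1, 0 with a pseudocount of 5, 0 with equal sums, 0 with equal upper quartiles, 0 with equal sums of genes of at least 200 nt, and 5 with the 1.5-fold rule. The shares of all genes that were lower, in the same order, were 2.04%, 3.14%, 1.04%, 1.59%, 1.67%, 1.53% and 7.26%. The median log2 ratio of the members was -0.07 as reported and changed sign with equal sums (0.052), equal upper quartiles (0.042) and equal sums of genes of at least 200 nt (0.083), where the median of all genes was 0.07, 0.06 and 0.12. The cause is the common factor of 1.09 to 1.14 put on the miR-215-/- values. Of 44 members, 35 had 1 sign in every setting. The share with a seed match was 31.8% for the hexamer. With the longest annotated transcript the fold interval of Tnf left out 1 (nearest bound 0.992), and with the shortest that of Birc2 included 1. No paired analysis was possible because each genotype has 1 library. Depth limits the members under 1 FPKM, which rest on at most 21 fragments.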
